A study of Mus musculus with 31 samples.

Results

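The SMAD co-repressors and feedback inhibitors of transforming growth factor beta (TGF-β) signalling described here are 8 mouse genes, Smad7, Ski, Skil, Pmepa1, Ldlrad4, Smurf1, Smurf2 and Tgif1, out of 27179 genes in the count table. They were chosen by name as inhibitors of the pathway, with earlier results of these data known. Each symbol was mapped to its Entrez identifier. RNA was sequenced from sorted mouse natural killer (NK) cells, cytotoxic lymphocytes of the innate immune system, in 31 libraries. The series crosses 3 genotypes with 3 conditions. Wild-type (WT) cells gave 4 libraries unstimulated, 2 after 4 h with the cytokine TGFB1 (replicates 1 and 4) and 4 after 24 h with TGFB1. Knockout of the type II TGF-β receptor (TGFBRII KO, gene Tgfbr2) gave 3 libraries in each of the same conditions. Cells without CIS (CIS KO), which the gene Cish encodes and which dampens the response to interleukin 15, gave 4 in each. The strain, age, sex and organ of the mice, the dose of TGFB1, and the promoter or Cre behind each knockout were not given by the sources used here. The labels call the libraries biological replicates and do not say whether the conditions of a genotype came from the same mice.

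TGF-β binds a pair of receptor kinases, which phosphorylate SMAD2 and SMAD3. These join SMAD4 and enter the nucleus to switch target genes on or off, and in NK cells the pathway is known to restrain cytotoxicity and effector cytokines. Several of the target genes encode inhibitors of the pathway itself. SMAD7 is an inhibitory SMAD that occupies the receptor and brings the ubiquitin ligases SMURF1 and SMURF2 to it. SKI and SnoN (the product of Skil) bind SMAD complexes on DNA and recruit co-repressors and histone deacetylases, as does the homeodomain protein TGIF1. PMEPA1 and LDLRAD4 are membrane proteins that keep SMAD2 and SMAD3 from the receptor.

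The total count per library ran from 297561 (WT at 4 h, replicate 1) to 1403005 (CIS KO at 24 h, replicate 2), with a median of 736193. All 8 genes passed the filter on low counts that left 10275 genes for testing. Levels are given as CPM, counts scaled to parts per 1e6 of the library size after scaling by the trimmed mean of M values (TMM). All 10 NK marker genes were detected, with a summed level of 2450 to 5761 CPM per library. Of the markers of other cells, the B cell genes summed to at most 6.24 CPM and the erythroid and platelet genes to at most 2.06 CPM. T cell genes summed to 184 to 320 CPM, mostly from Cd3d, Cd3g and Trac. Cd3e was at 1 to 30 counts (up to 20.2 CPM) and Cd6 at 0 to 4 counts. Cd4, Cd5, Cd8a and Cd8b1 were at no more than 2 counts in any library. Myeloid genes summed to 150.4 to 301 CPM, mostly from Itgax. Cst3 was at 1 to 23 counts (up to 45.1 CPM) and Cd68 at 3 to 19 counts (up to 19.3 CPM). Lyz2, Csf1r, Adgre1, S100a8 and S100a9 were at 0 to 2 counts. Genes of type 2 and 3 innate lymphoid cells summed to 126 to 297 CPM, from Gata3 and Il1rl1, with Il22, Il17a and Il13 at 0 to 1 counts. Genes of stroma and epithelium summed to 262 to 487 CPM, from Pecam1 and Epcam, with Col1a1, Col1a2 and Dcn at 0 to 1 counts and Col3a1 at 0 to 5. Cish was at 25.2 ± 6.76 CPM (SD, n = 4) in unstimulated CIS KO cells and 158 ± 21.6 CPM (n = 4) in WT, a log2 difference of -2.66 ± 0.17 (SE). Tgfbr2 was at 229.7 ± 8.18 CPM (n = 3) in unstimulated TGFBRII KO and 213 ± 26.6 CPM in WT, and a count over the whole gene does not check a deletion of part of it. Xist, transcribed from the inactive X chromosome, was at 91.1 to 222 CPM in WT libraries, 12.6 to 131 CPM in TGFBRII KO and 0 to 5.22 CPM in CIS KO. Ddx3y, on the Y chromosome, was at 0 to 72.3 CPM in WT libraries. It was at 113 to 287 CPM in TGFBRII KO and 207 to 289 CPM in CIS KO. None of the 8 genes lies on a sex chromosome. The makeup by sex cannot be told apart from the genotype in any comparison of either knockout with WT.

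Stretches before annotated starts are shown for 4 of the 8 genes, which were not picked by their timing after TGFB1. Any link of the letters to timing was not tested. The sequences are the 250 bases before an annotated start on GRCm38.p6, all on the minus strand and written 5′ to 3′. Skil and Pmepa1 are named only. The Smurf1 and Smurf2 windows reach into the annotated gene spans, which end at 144965899 and 106920747, so part of each lies within the gene. The motif CAGAC and its reverse complement GTCTG, the letters that SMAD3 and SMAD4 are known to bind, are in capitals.
Ski (chr4:155222536-155222785): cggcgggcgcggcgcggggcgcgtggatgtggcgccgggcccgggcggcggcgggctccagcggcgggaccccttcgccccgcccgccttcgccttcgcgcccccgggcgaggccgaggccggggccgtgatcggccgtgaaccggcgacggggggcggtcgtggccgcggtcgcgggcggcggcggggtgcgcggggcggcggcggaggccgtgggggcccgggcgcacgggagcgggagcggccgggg
Smurf2 (chr11:106920716-106920965): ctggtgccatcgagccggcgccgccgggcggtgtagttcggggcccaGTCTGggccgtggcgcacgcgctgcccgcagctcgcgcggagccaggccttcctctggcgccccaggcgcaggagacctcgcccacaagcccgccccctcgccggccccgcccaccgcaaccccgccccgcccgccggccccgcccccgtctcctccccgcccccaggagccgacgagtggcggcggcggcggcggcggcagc
Smurf1 (chr5:144965831-144966080): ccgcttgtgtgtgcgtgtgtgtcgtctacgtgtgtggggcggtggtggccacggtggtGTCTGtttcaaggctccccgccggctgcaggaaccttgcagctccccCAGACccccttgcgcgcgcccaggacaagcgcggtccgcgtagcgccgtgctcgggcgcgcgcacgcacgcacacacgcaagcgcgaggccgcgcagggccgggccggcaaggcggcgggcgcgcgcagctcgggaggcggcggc
Tgif1 (chr17:70853533-70853782, the most upstream of 5 annotated starts): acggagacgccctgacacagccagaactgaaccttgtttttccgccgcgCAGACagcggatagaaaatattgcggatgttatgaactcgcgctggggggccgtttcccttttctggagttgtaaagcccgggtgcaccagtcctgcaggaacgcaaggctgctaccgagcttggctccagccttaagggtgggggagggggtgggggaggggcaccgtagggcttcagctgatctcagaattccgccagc
The CAGAC letters occurred 2 times before Smurf1, 1 time before Smurf2, 1 time before this Tgif1 start and 0 times before Ski, counting both strands. The windows before the other Tgif1 starts held these letters 0 to 2 times. Of all 32851 start windows of the same length, 42.2% held at least 1 copy. The palindrome GTCTAGAC, which holds GTCTG on neither strand, was in none of the 4 windows and in 0.167% of all windows. GGCGC, a GC-rich SMAD motif read on both strands, was found 7 times before Ski, 6 times before Smurf2 and 4 times before Smurf1. It was found 0 times before this Tgif1 start and 0 to 1 times before the other Tgif1 starts. Of all windows, 32% held it. The Ski window was 87.6% G and C, above the 69.2% at the 90th percentile of all windows, whose median was 52.4%. A match says only that the letters are present, and a window without one says nothing of the factor.

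In WT cells, 7 of the 8 inhibitors were called higher at 4 h with TGFB1 than unstimulated, 7 of 8 at 24 h, and none lower. The sample titles give no hours for the unstimulated libraries, and no group is labelled as kept 4 h or 24 h without TGFB1. Within a genotype, TGFB1 and time in culture therefore cannot be told apart. Smurf1 was the gene not called at 4 h, and Tgif1 was the gene not called at 24 h. Across all genes tested, 6.9% were called higher at 4 h and 9.63% at 24 h (edgeR quasi-likelihood test, Benjamini-Hochberg adjusted p under 0.05). Because the 8 genes were chosen with earlier results known, their counts beside such shares here and below are descriptions and no test. The median log2 change of the 8 genes was 1.42 at 4 h and 1.41 at 24 h, where the median over all genes was -0.02 and 0.03. CIS KO cells showed the same split, with 7 of 8 called higher at 4 h (7.76% of all genes) and 7 of 8 at 24 h (12.3%), none lower, Smurf1 uncalled at 4 h and Tgif1 uncalled at 24 h. The medians in CIS KO were 1.64 and 1.45. Some marker genes moved with the treatment: at 4 h Gata3 rose by 0.52 ± 0.16 in WT and 0.60 ± 0.14 in CIS KO, Pecam1 by 0.59 ± 0.12 and 0.31 ± 0.10, and the NK gene Ncr1 fell by 1.04 ± 0.14 and 1.32 ± 0.12. At 24 h, 3 of the 10 NK markers were lower in WT and 5 in CIS KO. Their part in the changes of the 8 genes was not tested.

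In TGFBRII KO cells none of the 8 genes was called at 4 h or at 24 h, by edgeR or by DESeq2. At an unadjusted p under 0.05 edgeR gave 2 of 8 at 4 h, Ski (lower) and Pmepa1 (higher), and 0 of 8 at 24 h. The background differed between the times, since 8.02% of all genes were called in either direction at 4 h and 0.0195% at 24 h. The median log2 change of the 8 genes was -0.16 at 4 h and -0.11 at 24 h. In these bulk samples, fewer cells that express a gene and less RNA of it per cell cannot be told apart.

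**Figure D1:**
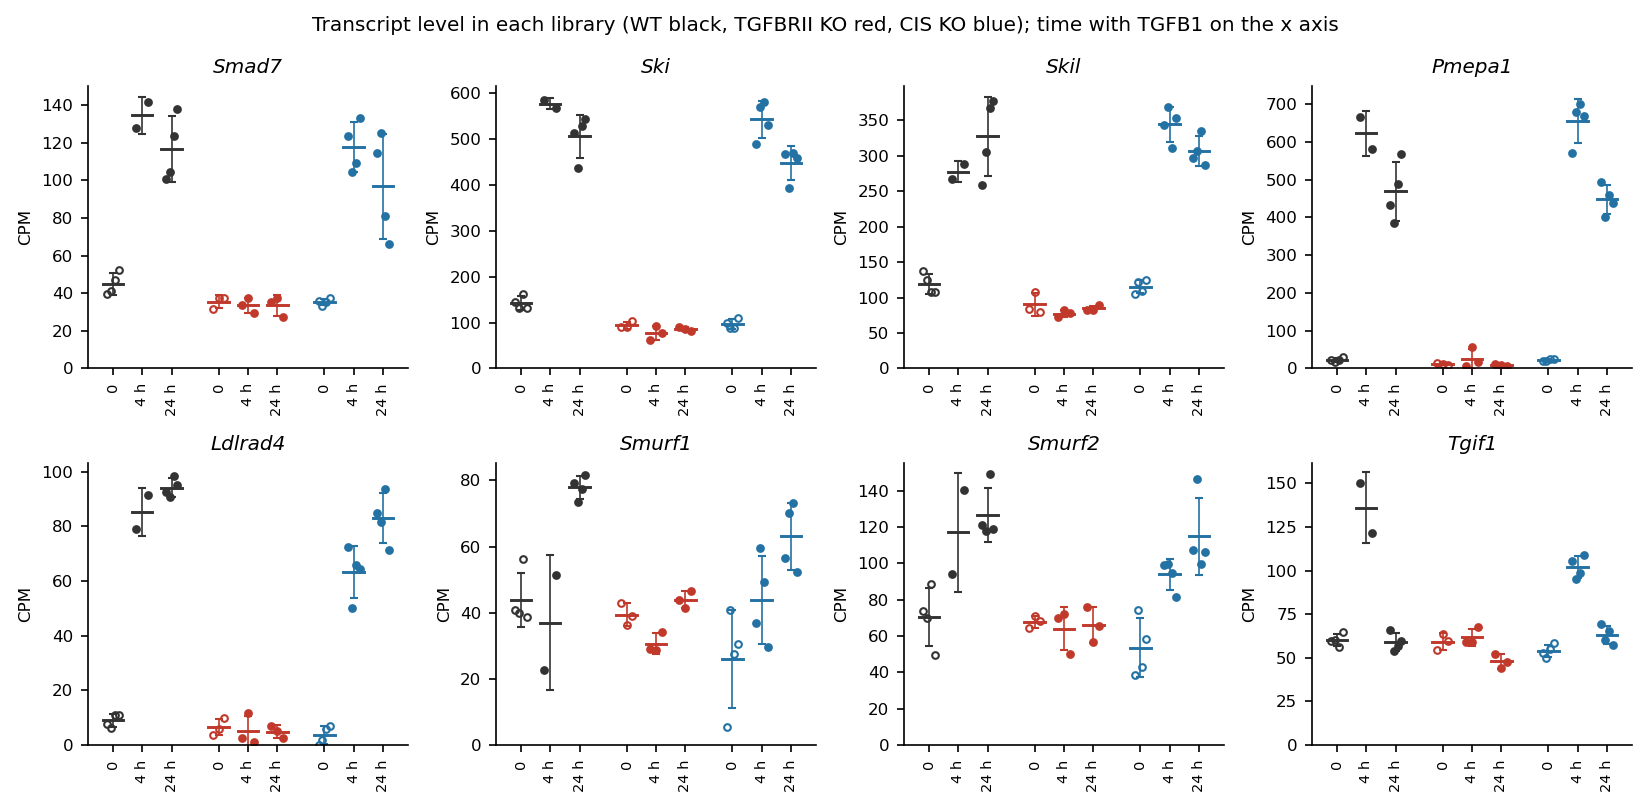
Transcript level in CPM of each of the 8 genes (1 panel per gene, linear axes from 0) in every library, by genotype (WT black, TGFBRII KO red, CIS KO blue) and time with TGFB1 (0 is unstimulated, open points). Bars are group means with SD. The treated WT and CIS KO libraries stand above their unstimulated libraries for Smad7, Ski, Skil, Pmepa1, Ldlrad4 and Smurf2, Tgif1 is high at 4 h only, and the TGFBRII KO libraries stay near their unstimulated level apart from Pmepa1 at 56.2 CPM in 1 library at 4 h.

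Smad7, the inhibitory SMAD (Entrez 17131; chromosome 18), was at 39.4, 41.2, 46.9 and 52.5 CPM in the 4 unstimulated WT libraries, 128 and 142 CPM at 4 h and 101, 105, 124 and 138 CPM at 24 h. Every treated WT library was above every unstimulated one. Over all genes, WT libraries did not overlap with the unstimulated ones for 36% at 4 h and 21.3% at 24 h, in either direction. The log2 change was 1.60 ± 0.19 at 4 h (adjusted p = 2.42e-07) and 1.36 ± 0.15 at 24 h (adjusted p = 1.25e-08). CIS KO libraries were at 35.9, 33.4, 35.3 and 37.5 CPM unstimulated, 124, 105, 109 and 133 CPM at 4 h, and 115, 125, 81.1 and 66.2 CPM at 24 h. The unstimulated CIS KO libraries were tightly grouped, and those at 24 h were the most spread of all Smad7 groups, yet none reached down to the unstimulated level. All 9 TGFBRII KO libraries were at 27.4 to 37.7 CPM, below every WT library.

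Among the co-repressors, Ski (Entrez 20481; chromosome 4, 155154075 to 155222535) and Skil (Entrez 20482; chromosome 3, 31095058 to 31122923), which encode related proteins, both rose and stayed up. Ski was at 145, 132, 163 and 131 CPM in unstimulated WT libraries, 586 and 569 CPM at 4 h and 513, 438, 529 and 545 CPM at 24 h. Its log2 change was 2.00 ± 0.12 at 4 h and 1.81 ± 0.10 at 24 h (adjusted p = 5.4e-14 and 1.25e-15). In CIS KO it was at 99.4, 89.1, 88.4 and 111 CPM, then 490.3, 571, 581 and 531 CPM, then 468, 394, 471 and 459.6 CPM. The unstimulated CIS KO libraries started below the WT ones, and at both times the treated libraries of the 2 genotypes overlapped. TGFBRII KO libraries ran from 62.6 to 103 CPM over the 3 conditions, with overlapping groups.

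Skil was at 137, 125, 108 and 108 CPM in unstimulated WT libraries, 267 and 288 CPM at 4 h and 259, 305, 368 and 377 CPM at 24 h. Skil changed by 1.23 ± 0.14 on the log2 scale at 4 h and 1.45 ± 0.11 at 24 h (adjusted p = 8.02e-08 and 1.39e-12). The libraries at the 2 times overlapped. CIS KO libraries were at 105 to 125 CPM unstimulated, 311 to 368 CPM at 4 h and 287 to 335 CPM at 24 h, and the log2 changes were 1.56 ± 0.12 and 1.39 ± 0.12. In TGFBRII KO, Skil was at 72.3 to 108 CPM throughout.

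Tgif1 (Entrez 21815; chromosome 17, 70844205 to 70853532), the homeodomain co-repressor, rose at 4 h and was back at its unstimulated level at 24 h. WT libraries were at 59.7, 59.9, 56.2 and 64.9 CPM unstimulated, 150.3 and 122 CPM at 4 h and 65.8, 54, 56.6 and 59.4 CPM at 24 h. Both libraries at 4 h stood above all 8 others, and the unstimulated and 24 h groups overlapped. The log2 change was 1.13 ± 0.13 at 4 h (adjusted p = 1.51e-07) and -0.03 ± 0.16 at 24 h (95% interval -0.35 to 0.30). CIS KO libraries followed the same course, at 52.5, 50.1, 55 and 58.3 CPM, then 106, 95.1, 98.8 and 109 CPM, then 69.3, 60, 65.5 and 57.5 CPM. The change there was 0.91 ± 0.12 at 4 h (adjusted p = 1.36e-06) and 0.21 ± 0.17 at 24 h. TGFBRII KO libraries were at 54.5, 63.9 and 59.5 CPM unstimulated, 59, 59 and 67.4 CPM at 4 h and 52.2, 44 and 47.6 CPM at 24 h, with changes of 0.06 ± 0.16 and -0.31 ± 0.17 (adjusted p = 0.887 and 0.796).

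The membrane adaptors had the largest changes of the 8 genes. Pmepa1 (Entrez 65112; chromosome 2, 173224458 to 173276731) was at 22.9, 16.2, 21.8 and 30.4 CPM in unstimulated WT libraries, 665 and 581 CPM at 4 h and 434, 386, 489 and 568 CPM at 24 h. These are 13 to 26 counts per unstimulated library against 177 and 464 at 4 h. The log2 change was 4.76 ± 0.25 at 4 h and 4.36 ± 0.22 at 24 h (adjusted p = 8.41e-16 and 1.08e-16). CIS KO libraries were at 19.3, 18.6, 25.5 and 25 CPM, then 569, 679.9, 699.9 and 667 CPM, then 494, 402, 458 and 437 CPM. The groups before and after TGFB1 were far apart in both genotypes.

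In TGFBRII KO, Pmepa1 was at 15.2, 10.8 and 8.51 CPM unstimulated, 6.02, 56.2 and 16 CPM at 4 h, and 10.7, 8.79 and 5.95 CPM at 24 h. Replicate 2 at 4 h, with 39 counts, stood apart from the other 8 libraries of the genotype, which had 5 to 14. Ldlrad4 was also highest there among these libraries, at 11.5 CPM (8 counts). Smad7, Ski, Skil and Tgif1 in that library were at 37.4, 92.2, 82.1 and 59 CPM, within the range of its genotype. Within the 4 h group, Smad7, Ski, Skil and Smurf2 (72 CPM) were highest in that library, and Tgif1 was not. Smurf1 and Tgfb3, at 28.8 and 7.2 CPM, were the lowest of the group. The SMAD target Id3 was highest in that library, at 38.9 CPM (27 counts) against 10.8 and 16 CPM in the other libraries at 4 h. Xist in that library was at 30.2 CPM, against 131 and 127 CPM, and the Y-linked Ddx3y at 287 CPM, against 154 and 131 CPM, and their part in the Pmepa1 level was not tested. The Pmepa1 change at 4 h was 1.08 ± 0.45 (adjusted p = 0.144). It was called without replicate 1 of the 4 h group (1.58, adjusted p = 0.0127) and without the filter on low counts (1.07, adjusted p = 0.0256). Without replicate 2 it was -0.05 (adjusted p = 0.976).

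Ldlrad4 (Entrez 52662; chromosome 18) was the lowest of the 8 genes before treatment. WT libraries were at 7.62, 6.24, 10.9 and 11 CPM (5 to 13 counts), 78.9 and 91.4 CPM at 4 h and 92.7, 90.6, 98.4 and 95 CPM at 24 h. The log2 change was 3.24 ± 0.31 at 4 h and 3.34 ± 0.25 at 24 h (adjusted p = 1.94e-09 and 9.89e-13). Unstimulated CIS KO libraries had 0, 1, 3 and 5 counts (0, 1.86, 5.89 and 6.94 CPM), where 0 counts in replicate 1 allow up to 8.29 CPM by counting error alone. They rose to 72.6, 49.9, 65.9 and 64.3 CPM at 4 h and 84.9, 81.6, 93.6 and 71.4 CPM at 24 h. The CIS KO changes were 3.88 ± 0.36 and 4.25 ± 0.33, with a range of 3.62 to 4.42 and 3.98 to 4.79 over the alternatives, and with so few counts at the start they are no measure of a lower bound. TGFBRII KO libraries stayed at 1.14 to 11.5 CPM (1 to 8 counts).

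Of the ubiquitin ligases, Smurf2 was called higher at both times in WT and CIS KO, and Smurf1 at 24 h. Smurf2 (Entrez 66313; chromosome 11, 106820061 to 106920747) was at 73.7, 69.9, 88.9 and 49.7 CPM in unstimulated WT libraries, 93.9 and 140.3 CPM at 4 h and 121, 118, 149 and 119 CPM at 24 h. No treated library reached down to the unstimulated ones. Its log2 change was 0.80 ± 0.20 at 4 h (adjusted p = 0.00783) and 0.80 ± 0.15 at 24 h (adjusted p = 0.000144). The call at 4 h rests on replicate 4, without which the change was 0.38 (adjusted p = 0.546), while the call at 24 h held under all 16 alternatives. In CIS KO, Smurf2 was at 38.7, 74.2, 43.2 and 58.3 CPM, then 99.3, 99.8, 94.7 and 81.6 CPM, then 108, 146, 99.8 and 106 CPM, with changes of 0.78 ± 0.20 and 1.11 ± 0.18 (adjusted p = 0.00616 and 1.91e-05). In TGFBRII KO it was at 50.3 to 76 CPM in all 9 libraries.

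Smurf1 (Entrez 75788; chromosome 5, 144876495 to 144965899) was at 40.7, 40, 56.2 and 38.7 CPM in unstimulated WT libraries, 22.5 and 51.4 CPM at 4 h and 79.2, 73.4, 77.5 and 81.6 CPM at 24 h. The lower value at 4 h is 6 counts in the shallowest library of the series. All 4 libraries at 24 h stood above the other 6. The log2 change was -0.06 ± 0.29 at 4 h (95% interval -0.64 to 0.52) and 0.79 ± 0.19 at 24 h (adjusted p = 0.00195). CIS KO libraries were at 5.52, 40.8, 27.5 and 30.5 CPM unstimulated (2 counts in the first), 36.9, 59.4, 49.4 and 29.7 CPM at 4 h and 56.6, 70.1, 73.3 and 52.2 CPM at 24 h. The change was 0.63 ± 0.27 at 4 h (adjusted p = 0.127, and 0.88 with adjusted p = 0.0471 without unstimulated replicate 2) and 1.19 ± 0.24 at 24 h (adjusted p = 0.000281). TGFBRII KO libraries were at 43.1, 36.2 and 38.9 CPM, then 28.9, 28.8 and 34.3 CPM, then 43.9, 41.5 and 46.4 CPM. The 4 h group lay below both others there, and neither change from the unstimulated level was called (-0.35 ± 0.26 and 0.16 ± 0.24). Groups did not overlap for 32% of all genes at 4 h against unstimulated and 32.5% at 24 h against 4 h in this genotype.

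**Figure D2:**
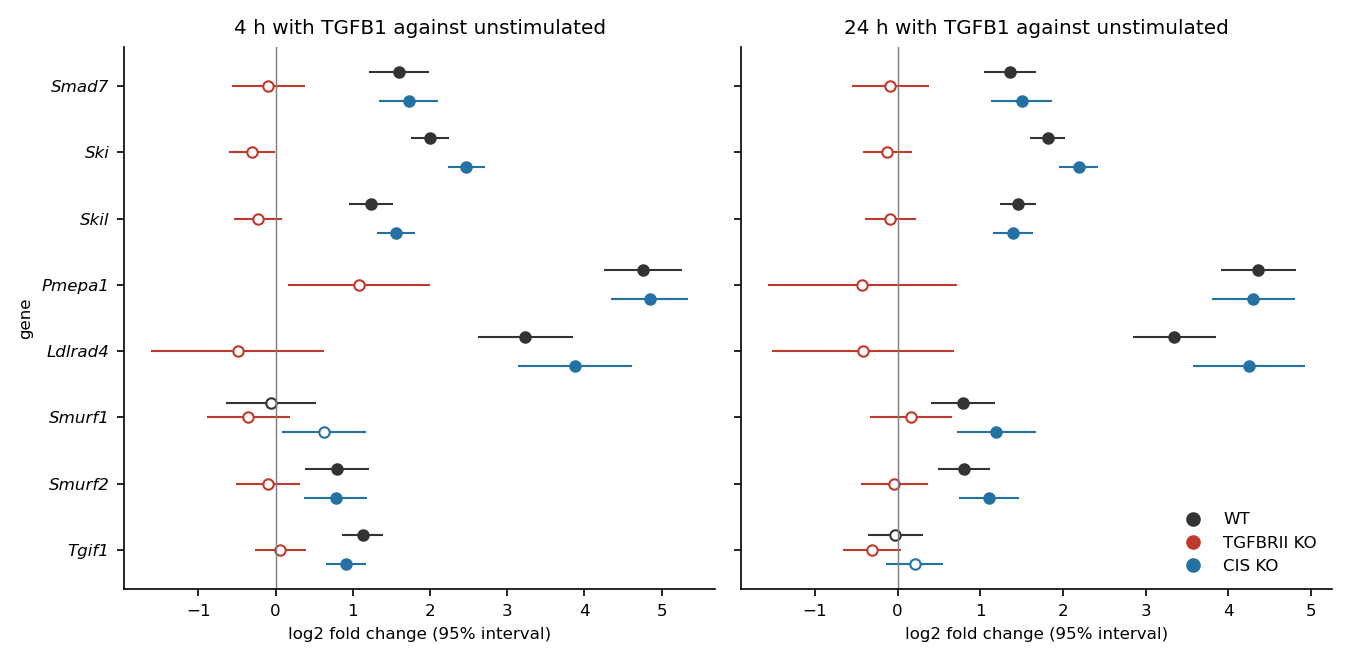
Log2 fold change against unstimulated cells of the same genotype at 4 h (left) and 24 h (right) with TGFB1, for the 8 genes in WT (black), TGFBRII KO (red) and CIS KO (blue). Points are edgeR estimates with 95% intervals, and filled points have an adjusted p under 0.05. WT and CIS KO points lie together to the right of 0 for most genes, with Pmepa1 farthest at 4.76 and 4.85 at 4 h, and no TGFBRII KO point is filled.

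Between 4 h and 24 h, 2 of the 8 genes were called in WT (7.57% of all genes in either direction), 1 in TGFBRII KO (lower, as were 3.86% of all genes) and 3 in CIS KO (all lower, against 7.7% of all genes), and these comparisons share their libraries with those above. Tgif1 fell by 1.15 ± 0.13 on the log2 scale in WT (adjusted p = 5.37e-07) and by 0.70 ± 0.11 in CIS KO (adjusted p = 5.35e-05), and both calls held under every alternative. In TGFBRII KO the Tgif1 difference was -0.37 ± 0.17 (adjusted p = 0.192). The groups did not overlap, as for 32.5% of all genes in that comparison. Whether these declines differ between genotypes was not tested. Smurf1 was higher at 24 h than at 4 h by 0.85 ± 0.27 in WT (adjusted p = 0.047), 0.51 ± 0.26 in TGFBRII KO (adjusted p = 0.243) and 0.57 ± 0.22 in CIS KO (adjusted p = 0.07). The WT call was lost without replicate 1 at 4 h (0.59, adjusted p = 0.316), without any 1 of the 4 libraries at 24 h, and with DESeq2 (adjusted p = 0.079), a replicate block (0.0772), only the libraries compared (0.109) or the closest pairs averaged (0.0534). The CIS KO difference was called under 4 of 16 alternatives: without replicate 2 at 4 h (adjusted p = 0.049), without replicate 4 at 24 h (0.0467), with library size alone (0.0425) and with no filter (0.0493).

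From 4 h to 24 h Pmepa1 fell by 0.55 ± 0.16 on the log2 scale in CIS KO (adjusted p = 0.0165, or 0.0501 without replicate 3 at 4 h and 0.116 with the closest pairs averaged), and the WT difference of -0.40 ± 0.19 was not called (adjusted p = 0.206). The TGFBRII KO difference of -1.51 ± 0.48 (adjusted p = 0.0451) rests on replicate 2 at 4 h. Without that library it was -0.38 (adjusted p = 0.729), and it was also lost without any 1 of the 3 libraries at 24 h (adjusted p = 0.063 to 0.188) and with the closest pairs averaged (adjusted p = 0.189). Ski was lower at 24 h in CIS KO by a small amount (-0.28 ± 0.10, adjusted p = 0.0442). That call was lost under 12 of 16 alternatives (adjusted p up to 0.199), namely without replicates 2, 3 or 4 at 4 h or replicates 1 or 2 at 24 h in turn, with DESeq2, library size alone, no filter, depth as a covariate, a replicate block, only the libraries compared, and the closest pairs of libraries averaged. Smad7, Skil, Ldlrad4 and Smurf2 were called in none of the 3 genotypes.

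**Figure D3:**
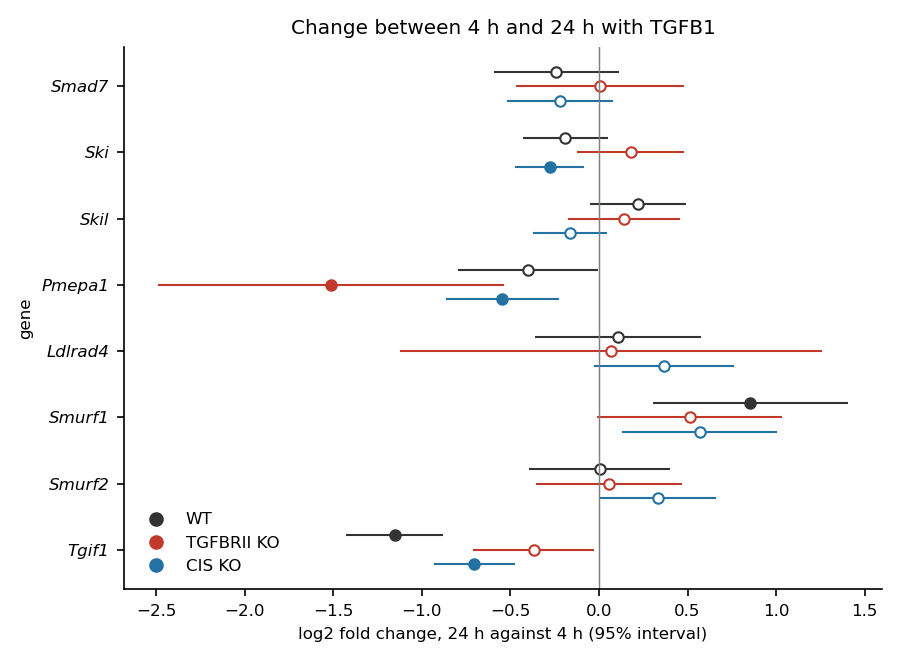
Log2 fold change of 24 h against 4 h with TGFB1 for the 8 genes in WT (black), TGFBRII KO (red) and CIS KO (blue), with 95% intervals; filled points have an adjusted p under 0.05. Tgif1 lies left of 0 in all 3 genotypes (-1.15, -0.37 and -0.70), Smurf1 lies right of 0, and the long red bar of Pmepa1 is the contrast that rests on 1 library.

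Levels of different genes can be set against each other only per length, so CPM was divided by the kilobases of all annotated exons of each gene. In unstimulated WT cells the order was Ski (25.7 ± 2.63 CPM per kb), Skil (12.3 ± 1.47), Smurf2 (11.4 ± 2.62), Tgif1 (10.7 ± 0.64), Smad7 (9.95 ± 1.31), Smurf1 (6.92 ± 1.30), Pmepa1 (4.65 ± 1.19) and Ldlrad4 (1.67 ± 0.45). Ski stood above the rest in every library, the 4 levels from Skil to Smad7 did not differ beyond their spread, and Ldlrad4 was below all others. At 4 h Pmepa1 led with 127 ± 12.1 CPM per kb, before Ski with 104 ± 2.23, and the other 6 were at 5.83 to 29.8. At 24 h the Pmepa1 and Ski levels of 95.5 ± 15.9 and 91.0 ± 8.48 CPM per kb overlapped. Pmepa1 went from 5.57% of the summed level of the 8 genes to 35.8% at 4 h and 31.1% at 24 h, and Ski stayed at 30.8%, 29.3% and 29.6%.

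The summed level per kb of the 8 genes was 83.3, 354 and 307 CPM in WT (unstimulated, 4 h, 24 h), 64.8, 344 and 280.1 CPM in CIS KO and 65.5, 61.8 and 60.6 CPM in TGFBRII KO. In CIS KO the order after TGFB1 began with Pmepa1, Ski and Skil as in WT at 24 h, at 133, 97.7 and 35.5 CPM per kb at 4 h. In TGFBRII KO, Ski led in all 3 conditions (13.9 to 17.0 CPM per kb) and Ldlrad4 was last in all 3 (0.90 to 1.21).

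**Figure D4:**
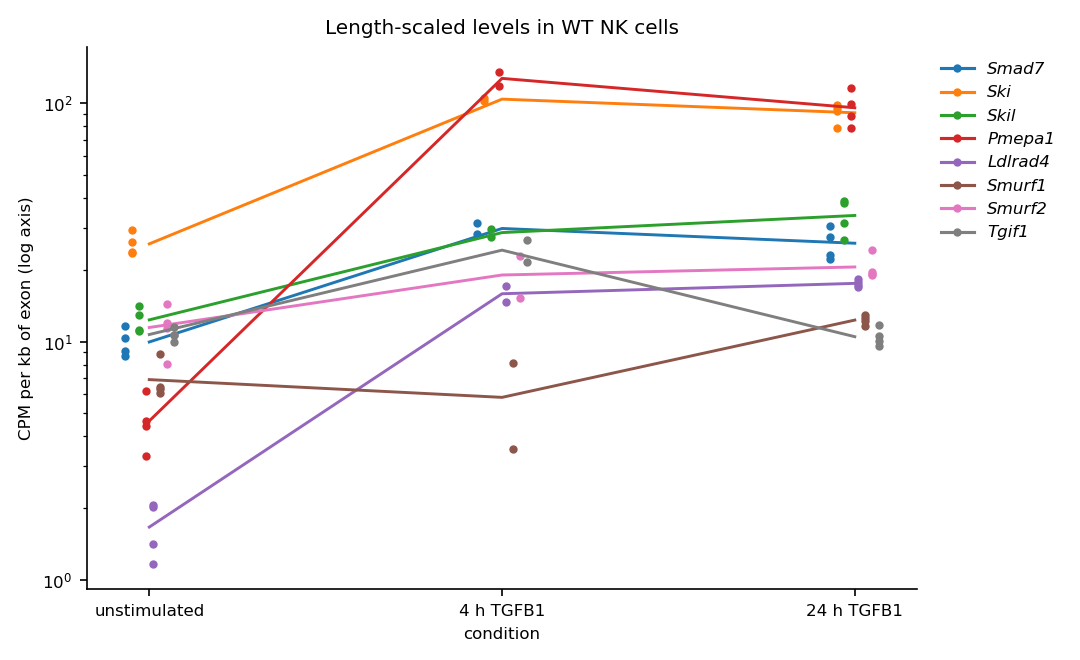
Level per kb of exon (log axis) of the 8 genes in WT NK cells, unstimulated and after 4 h and 24 h with TGFB1. Points are libraries and lines join group means. Pmepa1 moves from the second lowest place (4.65 CPM per kb) to the highest (127 at 4 h), and Tgif1 and Smurf1 change places between 4 h and 24 h.

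Against WT cells in the same condition, TGFBRII KO cells had lower levels of 7 of the 8 genes at 4 h (6.17% of all genes were called lower) and of 7 at 24 h (10.1%), and of 1 before treatment (0.0779%). At 4 h the gene not called was Smurf1 (-0.48 ± 0.32, adjusted p = 0.382), and at 24 h Tgif1 (-0.29 ± 0.17, adjusted p = 0.233). The differences ran from -0.98 ± 0.22 (Smurf2) to -4.65 ± 0.27 (Pmepa1) among those called at 4 h, and from -0.82 ± 0.21 (Smurf1) to -5.76 ± 0.30 (Pmepa1) at 24 h. The Smurf2 call at 4 h was lost without replicate 4 of WT (-0.56, adjusted p = 0.383). These comparisons share the WT and TGFBRII KO libraries with those of the responses above and are not separate evidence. Sex-linked genes also differed between these genotypes, and the part of sex was not tested.

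Before treatment, Ski was lower in both knockouts than in WT, with log2 differences of -0.60 ± 0.13 in TGFBRII KO (adjusted p = 0.0324) and -0.56 ± 0.13 in CIS KO (adjusted p = 0.0115), the latter as 1 of 8 genes where 2.96% of all genes were called lower. The 2 comparisons share the 4 WT libraries, of which all 4 were above all 7 knockout libraries. Over all genes, the groups did not overlap for 10.1% in TGFBRII KO against WT and 16.1% in CIS KO against WT. Replicate 3 of WT was the highest, and without it the differences were -0.52 (adjusted p = 0.243) and -0.47 (adjusted p = 0.0902). The TGFBRII KO call was also lost without replicate 1 or 2 of that group (adjusted p = 0.236 and 0.208), with DESeq2 (adjusted p = 0.0978), with a replicate block (adjusted p = 0.0542) and with the closest pairs of libraries averaged (adjusted p = 0.368). The CIS KO call was also lost without replicate 3 of that group (adjusted p = 0.0576) and with the closest pairs averaged (adjusted p = 0.129). Pmepa1, Smad7 and Skil in unstimulated TGFBRII KO differed from WT by -0.97 ± 0.43, -0.34 ± 0.20 and -0.40 ± 0.13, none called. Xist was at 0 in all 4 unstimulated CIS KO libraries and at 22.9 to 77.8 CPM in the 3 of TGFBRII KO, against 91.1 to 144 CPM in WT, and the part of sex in these differences was not tested.

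CIS KO and WT did not differ by the test in any of the 8 genes at 4 h (0.273% of all genes called) or at 24 h (3.27%), and DESeq2 gave 0 of 8 at both times. At an unadjusted p under 0.05, edgeR gave Skil (0.29 ± 0.13, higher in CIS KO) and Tgif1 (-0.35 ± 0.17) at 4 h and none at 24 h. At 24 h the 95% intervals of the differences lay within -0.65 to 0.40 on the log2 scale for all 8 genes. At 4 h, with 2 WT libraries, they were wider and lay within -0.94 to 0.64.

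The difference between the responses of 2 genotypes was tested as an interaction term. The response of TGFBRII KO was below that of WT for 7 of the 8 genes at 4 h (3.61% of all genes called lower) and 6 at 24 h (3.86%). At 4 h the differences for Smad7, Ski, Skil and Tgif1 were -1.69 ± 0.30, -2.31 ± 0.19, -1.46 ± 0.21 and -1.06 ± 0.20, and those for Pmepa1 and Ldlrad4 were -3.68 ± 0.60 and -3.73 ± 0.66. At 24 h Smad7, Ski and Skil were at -1.45 ± 0.28, -1.94 ± 0.18 and -1.54 ± 0.19, and Pmepa1 and Ldlrad4 at -4.79 ± 0.66 and -3.77 ± 0.64. These 6 genes at 4 h and 5 at 24 h were called under every alternative. Smurf2 was at -0.90 ± 0.29 (adjusted p = 0.0481) and -0.84 ± 0.25 (adjusted p = 0.0246), and both calls depended on the setting. At 4 h it was lost under 12 of 20 alternatives: with 8 of the 12 libraries left out in turn, library size alone, only the libraries compared, the closest pairs averaged, and DESeq2 (adjusted p = 0.0957). Without WT replicate 4 at 4 h the Smurf2 difference was -0.47 (adjusted p = 0.528). At 24 h it was lost without replicate 2 or 3 of unstimulated TGFBRII KO, replicate 2 of TGFBRII KO at 24 h, replicate 4 of unstimulated WT or replicate 3 of WT at 24 h (adjusted p = 0.0534 to 0.088), and with the closest pairs averaged (adjusted p = 0.114). Smurf1 was not called at either time (-0.29 ± 0.39 and -0.63 ± 0.31, adjusted p = 0.717 and 0.223).

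The response of CIS KO differed from that of WT for 0 of the 8 genes at 4 h (0% of all genes called) and 0 at 24 h (1.33%), and DESeq2 also gave 0. Only Ski passed an unadjusted p under 0.05, with a larger rise in CIS KO by 0.47 ± 0.17 at 4 h (95% interval 0.12 to 0.82, adjusted p = 0.569) and 0.38 ± 0.16 at 24 h (0.06 to 0.70, adjusted p = 0.267). Those differences share the lower unstimulated Ski level of CIS KO described above. The intervals for Smad7 were -0.43 to 0.68 at 4 h and -0.36 to 0.64 at 24 h, and for Pmepa1 -0.78 to 0.95 and -0.89 to 0.77. The widest were those of Ldlrad4, -0.50 to 1.79 and -0.19 to 1.99.

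**Figure D5:**
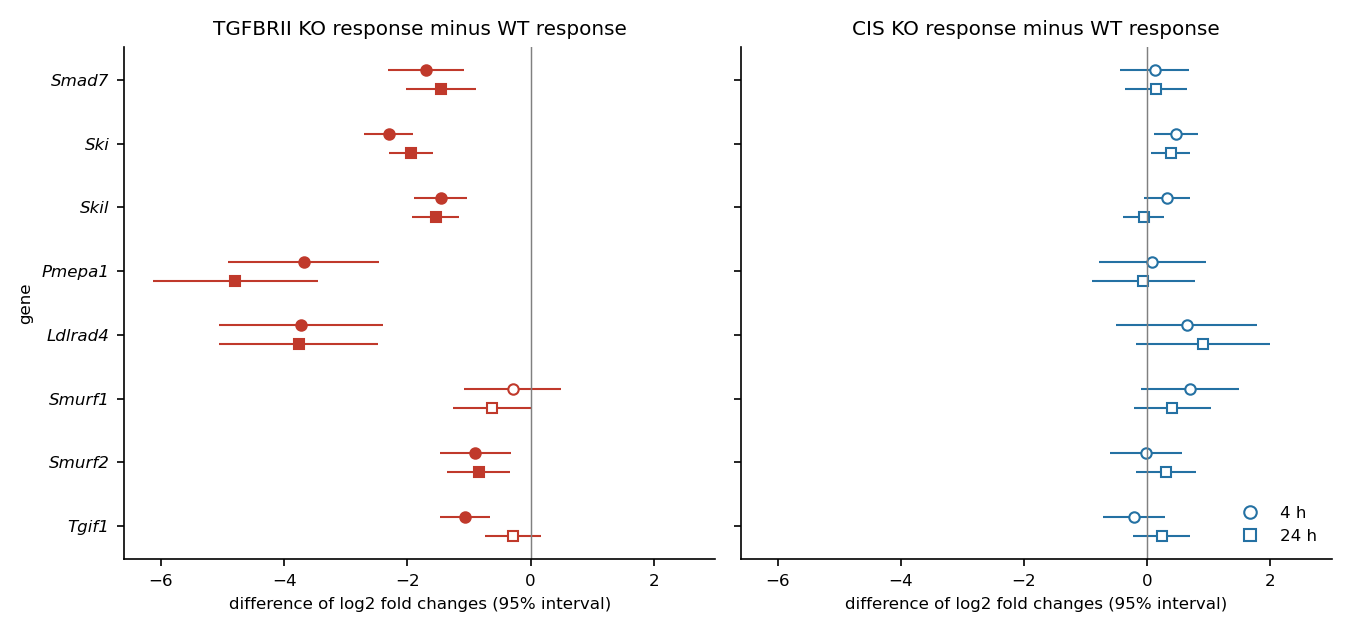
Difference between the log2 response of a knockout and the log2 response of WT for the 8 genes, TGFBRII KO on the left and CIS KO on the right, at 4 h (circles) and 24 h (squares), with 95% intervals; filled points have an adjusted p under 0.05. TGFBRII KO points reach -4.79 (Pmepa1 at 24 h), and all CIS KO points are open with most intervals across 0.

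Over the 9 group means of log2 CPM, Smad7, Ski, Skil, Pmepa1 and Ldlrad4 followed each other closely, with Pearson correlations of 0.965 to 0.995 between any pair. Smurf2 correlated with these 5 at 0.886 to 0.974, Tgif1 at 0.60 to 0.725 and Smurf1 at 0.477 to 0.646, and Smurf1 and Tgif1 with each other at -0.09. These are descriptions over 9 points that share the treatment. Of the other genes, those most like Ski in pattern were Cpd (0.992) and Klhl8 (0.99), those most like Pmepa1 were Ptdss1 (0.994) and Rnf149 (0.994), and the closest to Ldlrad4 was Tgfb3 (0.994), among 10091 genes compared. The closest to Smad7 was Ptafr (0.989), to Skil Rilpl1 (0.994) and to Smurf2 Ighm (0.992). The patterns of the remaining pair were rarer. Only 2 of the 10091 genes exceeded 0.95 with Tgif1, Gpr183 (0.987) and Smim3 (0.968), and 3 with Smurf1, led by Ss18l1 (0.962) and Lman2l (0.961), where Ski had 116.

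Other genes of the pathway were called in both directions. Over all genes, 6.9% were called higher and 5.03% lower in WT at 4 h, and 9.63% and 11.5% at 24 h. The shares were 7.76% and 6.3%, then 12.3% and 11.7%, in CIS KO, and 4.57% and 3.45% at 4 h, then 0.0195% and 0%, in TGFBRII KO. Of 18 ligands, receptors and signal-carrying SMADs, 12 were tested, and in WT 3 were higher and 2 lower at 4 h and 5 higher and 1 lower at 24 h. Tgfb3, a ligand, rose by 2.83 ± 0.21 and 3.14 ± 0.16 on the log2 scale, from 16.0 ± 5.08 CPM to 115 ± 1.77 and 143 ± 14.4 CPM. Tgfb1, which encodes the ligand that was added to the cells, rose by 1.25 ± 0.34 and 0.84 ± 0.27. The receptor gene Tgfbr2 rose by 0.66 ± 0.15 and 0.43 ± 0.12, and Smad3, which carries the signal, fell by 1.33 ± 0.35 and 0.84 ± 0.23, from 66.0 ± 12.6 CPM to 28.8 ± 7.09 and 37.3 ± 5.25 CPM. Smad2, named after its value was seen, was the other gene lower at 4 h (-0.55 ± 0.17), and the receptor genes Tgfbr3 (3.71 ± 0.63) and Acvr1 (1.20 ± 0.43), named likewise, were higher at 24 h. In CIS KO 3 were higher at 4 h and 6 at 24 h, none lower, and Tgfb3 rose there by 2.93 ± 0.21 and 3.46 ± 0.19. Smad3 was at -0.85 ± 0.38 and -0.70 ± 0.34 in CIS KO, not called at either time. In TGFBRII KO edgeR called none of the 12 at either time.

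Of 20 further negative regulators, 14 were tested, and in WT 0 rose and 1 fell at 4 h and none was called at 24 h. The 1 was Itch, a ubiquitin ligase, at -0.76 ± 0.18 in WT (adjusted p = 0.00347) and -0.62 ± 0.15 in CIS KO at 4 h (adjusted p = 0.00468), and it was higher in CIS KO at 24 h (0.35 ± 0.13, adjusted p = 0.0446). In CIS KO 2 of the 14 were lower at 4 h and 2 higher at 24 h, the others being Eid2 (-1.14 ± 0.36) and Trim33 (0.43 ± 0.16), named after their values were seen. In TGFBRII KO edgeR called none of the 14 at either time. The median log2 change of the 14 was -0.13 at 4 h and -0.03 at 24 h. All 16 genes for co-repressor partners of SKI, SnoN and TGIF1 were tested. Tbl1xr1, a subunit of co-repressor complexes, rose by 0.51 ± 0.14 on the log2 scale in WT at 4 h (adjusted p = 0.0137), and none of the 16 was called at 24 h. In CIS KO at 4 h 0 of the 16 were called, with Tbl1xr1 at 0.25 ± 0.12. In TGFBRII KO at 4 h, 2 of the 16 were higher, Ctbp2 (0.90 ± 0.25) and Ncor1 (0.36 ± 0.11), named after their values were seen. Of 9 ubiquitin ligases and deubiquitinases known to sustain the signal, 8 were tested. Usp11, a deubiquitinase, fell by 1.07 ± 0.25 in WT at 4 h and rose by 0.46 ± 0.14 at 24 h, when Rnf111 rose by 0.46 ± 0.17 and Uchl5 fell by 0.61 ± 0.12. Usp11 also fell in TGFBRII KO at 4 h, by 0.63 ± 0.19 (adjusted p = 0.0371). In CIS KO it rose at 24 h, by 0.83 ± 0.17 (adjusted p = 0.000593), and was not called at 4 h.

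Of 16 other SMAD target genes, 11 were tested, and in WT 5 rose and 0 fell at 4 h, and 3 rose and 0 fell at 24 h. Among them were Junb (1.10 ± 0.23), Arl4c (0.56 ± 0.13), Id3 (1.85 ± 0.49) and Bhlhe40 (0.67 ± 0.20) at 4 h. In CIS KO 4 were higher at 4 h, Arl4c (0.51 ± 0.11), Id3 (1.45 ± 0.42), and Cdkn2b and Itgae, named after their values were seen. Junb and Bhlhe40 were not called there. At 24 h in CIS KO 1 was higher and 1 lower, the lower being Arl4c (-0.34 ± 0.11). The integrin gene Itgae, named after its value was seen, rose at 24 h by 4.51 ± 0.32 in WT and 3.85 ± 0.41 in CIS KO. In TGFBRII KO 1 of the 11 was called at 4 h, Cdkn1a (0.59 ± 0.12), named likewise, and 0 at 24 h. These lists and the 8 inhibitors are compared by counts alone, and no difference between lists was tested.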

How the data were processed

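RNA-seq libraries of sorted NK cells were made with a directional kit, per the labels' protocols. The authors deposited raw counts per gene by Entrez identifier. The submitters' processing notes name FastQC, Trimmomatic, Subread, featureCounts, Picard, SAMtools and mm10. The strand setting, counting options and any removal of duplicate reads were not given by the sources used here. RefSeq GRCm38.p6 gave symbols for 25275 identifiers and GENCODE M21 for 18 more. The 1886 without a symbol held 0.956% of counts and stayed in the tests.

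Counts were fitted over all 31 libraries and 9 groups with edgeR 4.0.16 (limma 3.58.1, R 4.3.3), after filterByExpr and TMM scaling, by the quasi-likelihood test. P-values were adjusted by Benjamini-Hochberg over 10275 genes and called under 0.05. Standard errors were derived from each p and its degrees of freedom. The scripts were tested on simulated data. Alternatives were other scalings, no filter, depth as a covariate, a replicate block, only the libraries compared, each library left out in turn, and DESeq2 1.42.0.

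The 8 genes and the gene lists were chosen with earlier results of these data known. The text names the 8 genes, Tgfbr2 and Cish, up to 4 called genes of each list with the smallest p in WT, and the 2 genes most like each of the 8 in pattern (the text gives some of these), besides genes said to be named after their values were seen. Separate animals are not stated, so p-values measure only the spread between these libraries, which may be technical. Of 40 pairs of libraries within groups, 9 had a chi-square per degree of freedom under 1, as low as 0.772. That lowest pair (TGFBRII KO at 24 h, replicates 2 and 3) differed in sex-linked genes such as Ddx3y. Replicates 1 and 3 of TGFBRII KO did not, with Ddx3y at 118 and 113 CPM at 24 h (chi-square 0.795). Unstimulated, they had 122 and 113 CPM (0.831). Whether such pairs are technical repeats cannot be told from these values. Libraries were kept separate, and averaging the 6 closest pairs was an alternative. Floors are for counting error only. Some results among the gene lists are not reported here.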

Additional observations from a re-analysis of the deposited data

Results flagged for a closer look

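Single libraries stood apart from the other 3 of their group in 4 of 40 combinations of gene and group of 4 libraries (Dixon's test at the 95% level), where chance marks about 1 in 20. Ski was lowest in CIS KO at 24 h, replicate 2, at 394 CPM, where the next library was at 459.6 CPM. In the same library Smurf2 was highest, at 146 CPM, and the next was at 108 CPM. Smurf2 was also highest in WT at 24 h, replicate 3, at 149 CPM, before 121 CPM. Smurf1 was highest in unstimulated WT replicate 3, at 56.2 CPM, before 40.7 CPM.

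The log2 response to TGFB1 differed between TGFBRII KO and WT by the interaction test for 7 genes at 4 h, with Smad7 at -1.69, Ski at -2.31, Skil at -1.46, Pmepa1 at -3.68, Ldlrad4 at -3.73, Smurf2 at -0.90 and Tgif1 at -1.06. At 24 h it differed for 6 genes, with Smad7 at -1.45, Ski at -1.94, Skil at -1.54, Pmepa1 at -4.79, Ldlrad4 at -3.77 and Smurf2 at -0.84.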

How the results depend on the processing

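Of 63 called results for single genes, 53 were called under all of their 13 to 24 alternatives, and of 89 uncalled ones 85 stayed uncalled under all. No called value changed sign. Averaging the closest pairs of libraries was chosen after seeing the data. Of the counts of the 8 genes called, that of WT from 4 h to 24 h went from 2 to 1 with a replicate block, with only the libraries compared, with the closest pairs averaged and with DESeq2, each time leaving Tgif1. TGFBRII KO at 4 h went from 0 to 1 (Pmepa1) with no filter. TGFBRII KO from 4 h to 24 h went from 1 (Pmepa1) to 0 with the closest pairs averaged. It was also 0 with only the libraries compared, where Pmepa1 was not tested. CIS KO from 4 h to 24 h went from 3 to 1 with the closest pairs averaged. Unstimulated TGFBRII KO against WT went from 1 to 0 with a replicate block, the closest pairs averaged or DESeq2, and unstimulated CIS KO against WT from 1 to 2 with no filter (Ski and Smurf1) and to 0 with the closest pairs averaged. The replicate block moved no other of these counts by over 1.5 times. With each library left out in turn, the counts were 1 to 2 for WT from 4 h to 24 h, 0 to 1 for TGFBRII KO at 4 h, 0 to 1 for TGFBRII KO from 4 h to 24 h, 1 to 4 for CIS KO from 4 h to 24 h, and 0 to 1 for each knockout against WT unstimulated. The causes were not tested. Counts over all genes moved more: 824 called in TGFBRII KO at 4 h became 402 to 1360, 2 at 24 h became 0 to 206, and 632 in unstimulated CIS KO against WT became 24 to 1197. Scaling by library size alone moved the median log2 change of all genes by 0.10 in CIS KO from 4 h to 24 h, its largest move in any comparison. It turned 709 higher and 517 lower genes into 527 and 751 in WT at 4 h, 308 and 470 into 426 and 364 in WT from 4 h to 24 h, 796 and 791 into 1193 and 520 in CIS KO from 4 h to 24 h, 328 and 304 into 279 and 520 in unstimulated CIS KO against WT, and 407 and 371 into 491 and 287 in the response of TGFBRII KO against WT at 4 h. Same-numbered libraries deviated from their group means with correlations of -0.39 to 0.25, so the numbers were not taken to pair samples. As a hint from the data, 5, 4 and 5 of 6 TGFBRII KO libraries correlated best with their own number at 4 h against unstimulated, 24 h against unstimulated and 24 h against 4 h. In CIS KO it was 0, 1 and 4 of 8, and in WT at 24 h against unstimulated 1 of 8. TGFBRII KO replicate 2 had the lowest Xist (12.6 to 30.2 CPM) and highest Ddx3y (211 to 287 CPM) of its genotype in all 3 conditions, and WT replicate 2 had Ddx3y at 57.4 and 72.3 CPM where the other WT libraries had at most 15. Fewer than 10 counts were found in 16 libraries for Ldlrad4, 7 for Pmepa1 and 2 for Smurf1.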
